A study of Mus musculus with 6 samples.

Results

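The genes described here are the 33 mouse genes of glucose uptake, glycolysis and lactate export, among the 52550 genes of the deposited gene table. They were chosen by symbol, matched to Ensembl identifiers without their version. RNA was sequenced from CD3+ T cells that had been isolated from the spleens of wild-type mice and activated for 24 h with beads carrying antibodies to CD3 and CD28. All 6 samples were activated in this way. In 3 samples the T cell receptor (TCR) stimulus was given by itself (TCR alone), and in 3 samples a compound was added at 100 ng/ml (TCR+DMGV). The sample labels name this compound DMGV, dimethylguanidino valeric acid, whereas the study's text on this experiment names LNY1, an ADMA- and SDMA-containing factor, and the sources used here do not settle which was added. The 3 samples of each group are described as independent biological samples. Mice of both sexes, aged 6 to 8 weeks, were used in the study, whereas the age and sex behind each sample, and whether a sample pooled animals, were not stated. Total counts were 37758725, 41593014 and 40327431 in TCR alone replicates 1 to 3, and 43587243, 43718867 and 40492457 in TCR+DMGV replicates 1 to 3.

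Glycolysis splits glucose into pyruvate in the cytosol and yields ATP and NADH. Resting T cells use little of it, whereas T cells activated through the TCR and CD28 take up more glucose, raise most enzymes of the pathway and turn much of the pyruvate into lactate, which leaves the cell through monocarboxylate transporters. Most steps can be carried out by more than 1 gene product, and the forms differ in affinity, location and regulation.

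The form of pyruvate kinase that a cell makes from the Pkm gene is set by splicing, which includes one or the other of 2 exons of equal length. The exons are printed here because the 2 main Pkm transcripts of these samples are told apart by them. Both lie in the coding sequence of Pkm on chromosome 9, on the forward strand of GRCm38 (GENCODE M21), the upstream exon at chr9:59675029-59675195 in Pkm-202, the M1 form, and the downstream exon at chr9:59675568-59675734 in Pkm-201, the M2 form. Each is 167 bases long, and capitals mark the 64 positions at which they differ.
M1 exon: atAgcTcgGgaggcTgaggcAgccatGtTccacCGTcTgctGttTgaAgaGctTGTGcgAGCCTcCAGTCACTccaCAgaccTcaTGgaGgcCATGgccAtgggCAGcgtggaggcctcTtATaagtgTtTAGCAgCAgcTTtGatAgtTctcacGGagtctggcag
M2 exon: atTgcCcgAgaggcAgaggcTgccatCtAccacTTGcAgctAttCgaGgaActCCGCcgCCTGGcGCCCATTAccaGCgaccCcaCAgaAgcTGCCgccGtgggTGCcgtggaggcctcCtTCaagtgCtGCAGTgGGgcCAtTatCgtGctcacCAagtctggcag

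Before the groups were compared, the samples were checked against each other and against their labels. On the first principal component of log2 CPM (counts divided by library size with TMM factors), which held 32.2% of the variance, TCR alone replicate 3 (-42.1) and TCR+DMGV replicate 1 (-42.9) stood apart from the other 4 samples (10.5 to 34.9). These 2 samples belong to different groups, and the fits of genes, transcripts and transcript usage and the shares within steps were also run without them. The 14 T cell markers, led per length by Trbc2, were all detected, and their summed level was 4425, 4493 and 4810 CPM in TCR alone against 5026, 4727 and 4949 CPM in TCR+DMGV. These ranges overlapped, while 13 of the 14 estimates were higher with DMGV, with a median log2 fold change of 0.10 and 0 at an unadjusted p under 0.05, and the part of this shift in the results was not tested. The activation markers summed to 5170, 5013 and 4439 CPM in TCR alone and to 4639, 4847 and 4851 CPM in TCR+DMGV. Irf4, a transcription factor induced by TCR signals, was the most abundant of them at 1120 to 1290 CPM. Within this list 1 gene was higher and 1 lower at an unadjusted p under 0.05, and neither passed after adjustment (edgeR adjusted p = 0.999). Mki67, a proliferation marker, gave 509, 443 and 358 CPM in TCR alone against 297, 322 and 318 CPM in TCR+DMGV (log2 fold change -0.48, standard error 0.13), lower in all 3 samples with DMGV. Nr4a1, an early target of TCR signals, gave 215, 208 and 245 CPM against 302, 268 and 261 CPM (log2 fold change 0.32, standard error 0.09), higher in all 3. The part of these 2 genes in the results was not tested.

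Among markers of other cells, the 12 B cell genes summed to between 249 and 275 CPM in every sample, nearly all of it from Ighm at 234 to 262 CPM, whereas Cd79a and Cd79b, which B cells need for their receptor, had 0 to 12 and 215 to 330 counts. The 12 myeloid genes summed to 43.8, 40.6 and 44.1 CPM in TCR alone and to 34.6, 34.3 and 33.0 CPM in TCR+DMGV. Cebpb, a transcription factor gene and the most abundant of the myeloid list, gave 29.5, 25.0 and 25.7 CPM in TCR alone against 19.2, 18.5 and 18.1 CPM in TCR+DMGV, with a log2 fold change of -0.52 (edgeR adjusted p = 0.999), and without it the list summed to 14.3, 15.6 and 18.4 CPM in TCR alone and to 15.4, 15.8 and 14.9 CPM in TCR+DMGV, where the groups overlapped. Csf1r had 279 to 359 counts, Hmox1 140 to 251 and Cd68 60 to 107, while Cd14 was at 0 in all samples and Adgre1 and Itgam had counts in 1 sample each. The part of these cells in the results was not tested. Of the 11 neutrophil genes, Csf3r alone had any count, 4 counts in each of 2 samples. The erythroid genes, led by Hbb-bs, summed to 5.27, 5.49 and 4.13 CPM in TCR alone and to 2.36, 3.88 and 3.79 CPM in TCR+DMGV, lower in all 3 samples with DMGV, and Epb42, Slc4a1 and Rhag were at 0. Of 5 erythroid genes tested, 1 was lower at an unadjusted p under 0.05 and 0 passed after adjustment, and their part in the results was not tested. The natural killer cell genes, led by Eomes, summed to 72.1, 80.2 and 75.4 CPM in TCR alone against 87.9, 83.0 and 90.1 CPM in TCR+DMGV, higher in all 3 samples with DMGV. All 6 of these genes that were tested had a higher estimate, with a median log2 fold change of 0.33, 1 (Klre1) at an unadjusted p under 0.05 and 0 after adjustment. Ncr1, which encodes a receptor typical of natural killer cells, had 4 to 37 counts. The dendritic cell genes, led by Bst2, summed to 72.2 to 89.7 and 81.6 to 98.1 CPM, overlapping, with Siglech, Clec9a and Cd209a at 0, and 4 of 5 tested had a higher estimate (median 0.24 on the log2 scale). The part of either list in the results was not tested.

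Glycolysis was a highly expressed pathway in both groups, and no gene of it passed the threshold for a difference with DMGV. The 33 genes held 1.29%, 1.43% and 1.46% of all counts in TCR alone against 1.33%, 1.30% and 1.36% in TCR+DMGV. The ranges overlapped. Of the 33, 32 passed the filter on low counts, and Hkdc1 had 0 counts in all samples. At an adjusted p of 0.05 (edgeR's quasi-likelihood test with Benjamini-Hochberg adjustment, two-sided), 0 of the 32 were called, where 0.0135% of the 14786 genes tested were called (2 genes). At an unadjusted p under 0.05, 1 of the 32 was found (Pdk2), against 3.19% of all genes tested, and DESeq2 likewise called 0 with 1 at an unadjusted p under 0.05. In bulk RNA, fewer cells of a type and less RNA per cell cannot be told apart.

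The fitted differences were small and more often negative than positive. Of the 32 genes, 25 had a lower and 7 a higher estimate in TCR+DMGV, and the median log2 fold change was -0.064, against 0.0024 over all genes tested, of which 49.4% had a lower estimate. Groups that did not overlap were found for 5 genes that were lower (Slc2a6, Hk1, Gpi1, Pgam1 and Pdk2) and 1 that was higher (Bpgm), where 3.94% and 4.92% of all genes tested had such groups in these directions. On gene FPKM the groups of Slc2a6, Hk1 and Bpgm overlapped, and those of Slc16a1 and Galm did not, both lower. The estimate lay within 0.25 of 0 for 30 of the 32, against 75.2% of all genes, and for 26 of the 32 both bounds of the 95% interval lay within 0.5 of 0. The median deviation of the genes from their 6-sample mean was -0.031, 0.116 and 0.043 in TCR alone and -0.063, -0.056 and -0.022 in TCR+DMGV on the log2 scale, so that TCR alone replicate 1 lay among the TCR+DMGV samples. Leaving out TCR alone replicate 1 moved the median log2 fold change to -0.119. In the 4 samples without TCR alone replicate 3 and TCR+DMGV replicate 1, 31 genes were tested, 13 were higher and 18 lower, 0 were called and the median was -0.042.

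**Figure D1:**
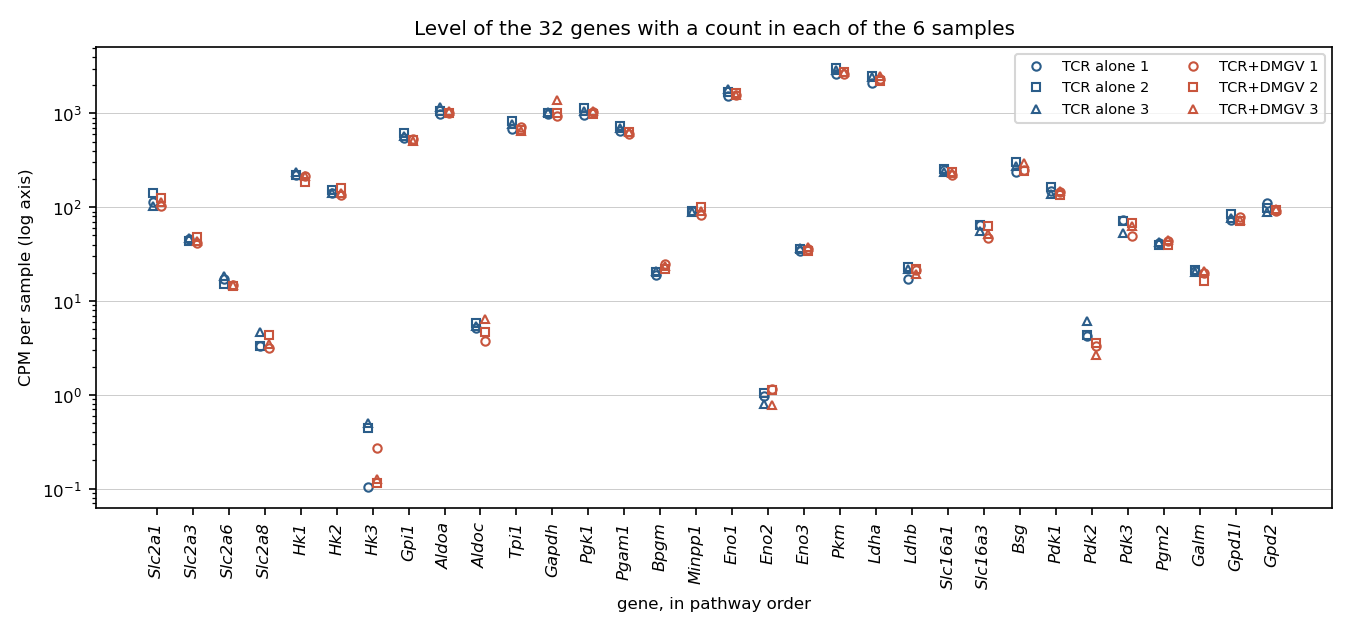
CPM (counts scaled to library size with TMM factors, log axis) of the 32 genes with a count, in pathway order, with 1 symbol per sample (blue TCR alone, red TCR+DMGV, the shape giving the replicate). Pkm, at 2611 to 3054 CPM in the 6 samples, lies highest where the copies of Gapdh are left out, as they are here (Gapdh with its copies is at 2774 to 3400 CPM), and the groups overlap for most genes.

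**Figure D2:**
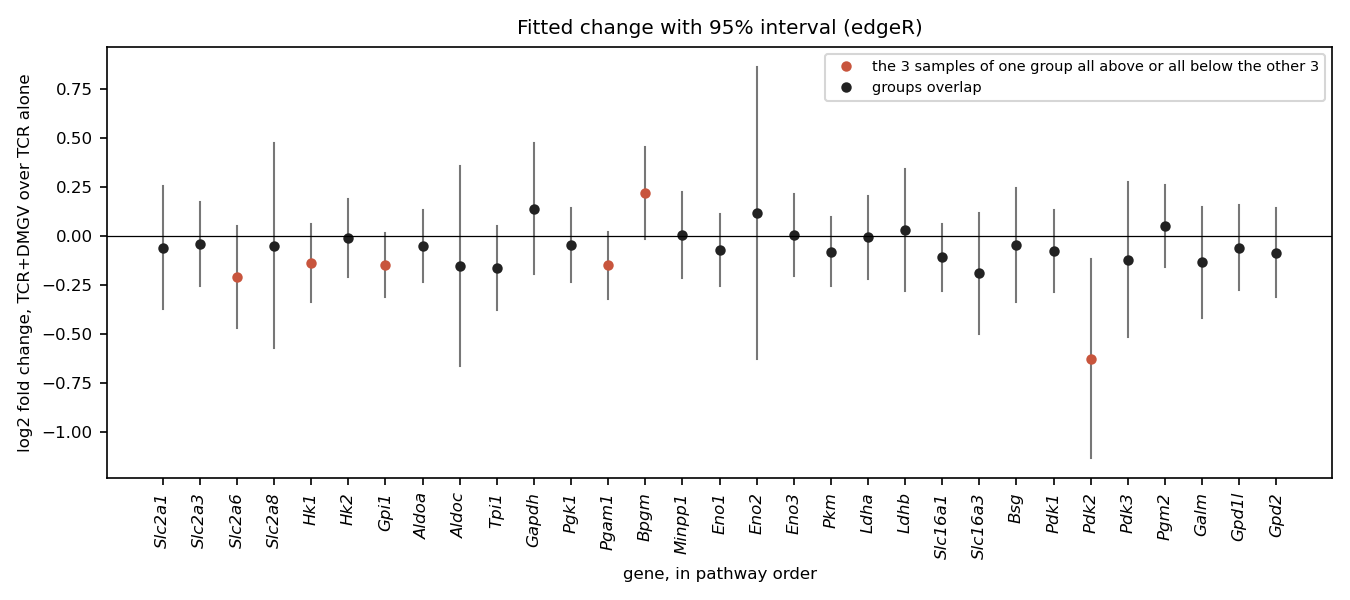
Fitted log2 fold change (TCR+DMGV over TCR alone) with its 95% interval for 31 genes, Hk3 with at most 21 counts being left out. Red marks the 6 genes whose groups do not overlap; the interval of Pdk2 is the one that excludes 0.

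Slc2a1 was the main glucose transporter gene in these cells. It encodes GLUT1, which carries glucose across the plasma membrane of activated T cells. Its level per length was 30.2 ± 4.28 gene FPKM in TCR alone against 28.7 ± 2.32 in TCR+DMGV (SD, n = 3 each), which was 70.4% ± 4.3 and 71.3% ± 1.4 of the summed FPKM of the measured SLC2 genes (exact permutation test, p = 0.8). On summed transcript FPKM its share was 59.9% ± 5.2 and 63.5% ± 2.0. Slc2a3, which encodes the high-affinity transporter GLUT3, followed at 5.63 and 5.41 FPKM, then Slc2a6 at 4.73 and 4.04 and Slc2a8 at 1.04 and 0.99, the products of the last 2 being found largely on internal membranes. Slc2a3 lay above Slc2a6 in every sample, by little more than their spread in TCR alone (5.29 to 5.87 against 4.15 to 5.24 FPKM). Slc2a4, which encodes the insulin-responsive GLUT4, and Slc2a5, a fructose transporter, had 0 counts.

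By sample, Slc2a1 (ENSMUSG00000028645, GRCm38 chromosome 4, 119108711 to 119137983) gave 113, 141 and 103 CPM in TCR alone against 103, 125 and 114 CPM in TCR+DMGV. The groups overlapped, with TCR alone replicate 2 highest (log2 fold change -0.06, standard error 0.13). Slc2a6 gave 17.2, 15.4 and 18.5 CPM in TCR alone against 14.9, 14.5 and 14.7 CPM in TCR+DMGV. All 3 samples with DMGV lay below those without it, by a log2 fold change of -0.21 (standard error 0.11) that did not pass the threshold (edgeR adjusted p = 0.999). Slc2a3 and Slc2a8 had log2 fold changes of -0.04 and -0.05 with overlapping groups.

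Hexokinases trap glucose in the cell by phosphorylating it, and 2 of them were present at similar levels per length. Hk1, which is made in most tissues, had 23.8 ± 1.64 gene FPKM in TCR alone against 21.4 ± 1.89 in TCR+DMGV, and Hk2, the form raised in growing and activated cells, had 21.9 ± 0.59 and 21.6 ± 1.51. Hk1 held 51.9% ± 2.0 and 49.7% ± 3.9 of the step (exact permutation test, p = 0.6). On the summed FPKM of a gene's transcripts, Hk1 held 69.5% ± 1.5 and 65.9% ± 4.4, so which hexokinase leads by how much depends on which FPKM is used. Hk1 gave 219, 221 and 240 CPM in TCR alone against 216, 188 and 215 CPM in TCR+DMGV. The groups did not overlap, but the gap between TCR alone replicate 1 and TCR+DMGV replicate 1 was small, and the log2 fold change was -0.14 (standard error 0.08). With 1 sample left out, the log2 fold change of Hk1 ran from -0.178 to -0.073. Hk2 gave 143, 154 and 143 CPM against 136, 159 and 142 CPM, with overlapping groups and a log2 fold change of -0.01. Hk3, a form of myeloid cells, had 4, 18 and 21 counts in TCR alone against 12, 5 and 5 in TCR+DMGV, while Unc5a, which overlaps it on the other strand, had 66 to 153, and without knowledge of strand in the counting the reads of both cannot be told apart.

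The next enzymes, through which the hexose is rearranged and split, were expressed mostly from 1 gene each. Gpi1, glucose-6-phosphate isomerase, gave 550, 612 and 570 CPM in TCR alone against 530, 527 and 508 CPM in TCR+DMGV. Every sample with DMGV lay below every sample without it, with a log2 fold change of -0.15 (standard error 0.07, unadjusted p = 0.072, edgeR adjusted p = 0.999). Aldoa, the ubiquitous aldolase, held 99.5% of the aldolase FPKM in both groups, with 1072 ± 84.4 CPM in TCR alone against 1035 ± 34 CPM in TCR+DMGV. Aldoc, the brain form, had 5.51 ± 0.39 and 4.96 ± 1.33 CPM. Tpi1, which interconverts the triose phosphates, gave 683, 832 and 769 CPM against 722, 666 and 654 CPM, with overlapping groups and a log2 fold change of -0.16 (standard error 0.09). With 1 sample left out, the log2 fold change of Tpi1 ran from -0.25 to -0.0963.

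Gapdh, which oxidises glyceraldehyde-3-phosphate and makes NADH, has a count that is uncertain in these files. It gave 986, 1020 and 1034 CPM in TCR alone against 947, 1013 and 1390 CPM in TCR+DMGV. A single sample, TCR+DMGV replicate 3, was high, and its Gapdh-201 transcript had 11752 counts where that transcript had 0 in the other 5 samples. Without the Gapdh-201 counts this sample had 1094 CPM, and the log2 fold change went from 0.14 (standard error 0.14) to 0.00652. Without TCR+DMGV replicate 3 it was -0.048. In addition, 73 near-identical copies of Gapdh elsewhere in the genome (at least 95% identity over 80% of the shorter sequence) held counts, in sum 69869, 78569 and 86336 in TCR alone against 81331, 80789 and 79650 in TCR+DMGV. That is 59.1% to 66.9% of the counts of Gapdh and its copies together, and with the copies added to Gapdh the log2 fold change was 0.028.

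Pgk1, phosphoglycerate kinase, and Pgam1, the main phosphoglycerate mutase, follow and were both abundant. Pgk1 had 1058 ± 83.8 CPM in TCR alone against 1027 ± 40.9 CPM in TCR+DMGV, with 2 copies elsewhere that held at most 8.65% of the joint counts. Pgam1 gave 648, 734 and 692 CPM in TCR alone against 600, 632 and 638 CPM in TCR+DMGV. The groups did not overlap, the nearest samples being TCR alone replicate 1 and TCR+DMGV replicate 3, and the log2 fold change was -0.15 (standard error 0.07, edgeR adjusted p = 0.999). A copy of Pgam1 held up to 9.98% of the joint counts. Bpgm, whose product makes 2,3-bisphosphoglycerate, gave 18.9, 20.3 and 21.04 CPM in TCR alone against 24.9, 21.9 and 23.4 CPM in TCR+DMGV. It was the one gene of the pathway with every DMGV sample above every other, by a log2 fold change of 0.22 (standard error 0.10, unadjusted p = 0.063, edgeR adjusted p = 0.999). Minpp1, which encodes a phosphatase acting on the same metabolite, had 91.4 ± 1.24 and 91.7 ± 9.41 CPM.

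Of the enolases, Eno1 held 90.6% ± 0.40 of the step's FPKM in TCR alone against 90.6% ± 0.59 in TCR+DMGV (exact permutation test, p = 1.0). It gave 1538, 1703 and 1810 CPM in TCR alone against 1584, 1654 and 1576 CPM in TCR+DMGV, overlapping, with a log2 fold change of -0.07 (standard error 0.08). Eno3, the muscle form, was the second at 18.3 ± 0.78 and 18.2 ± 1.03 FPKM and had a log2 fold change of 0.0066, and Eno2, the neuronal form, lay at 0.16 and 0.18 FPKM. Eno1b, a near-identical copy of Eno1 that is not among the 33 genes, had 746, 873 and 880 counts in TCR alone against 777, 743 and 731 in TCR+DMGV (log2 fold change -0.23, unadjusted p = 0.047), and their reads may have been shared out in counting.

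Pyruvate kinase, which makes pyruvate and ATP, came from Pkm alone, since Pklr, the gene of the liver and red cell forms, had 0 counts. Pkm (ENSMUSG00000032294, chromosome 9, 59656368 to 59679375) gave 2644, 3054 and 2897 CPM in TCR alone against 2611, 2778 and 2747 CPM in TCR+DMGV. The groups overlapped, with a log2 fold change of -0.08 (standard error 0.08), and Pkm ranked 73rd of all genes by mean gene FPKM. Both exons printed above were in use. Pkm-201, with the M2 exon, had 651, 719 and 714 FPKM in TCR alone against 594, 693 and 628 FPKM in TCR+DMGV, and Pkm-202, with the M1 exon, had 313, 397 and 390 FPKM and 343, 306 and 363 FPKM. The M2 form thus led in every sample, and the 2 groups did not separate for either transcript.

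The M2 share of the protein-coding Pkm transcripts with either exon was 67.5%, 64.4% and 64.7% in TCR alone against 63.4%, 69.4% and 63.3% in TCR+DMGV. The lowest and the highest share were both in samples with DMGV, and the means, 65.6% ± 1.7 and 65.4% ± 3.5, differed by -0.18 percentage points (exact permutation test, two-sided, p = 1.0). In the 4 samples without the 2 that stood apart the means were 66.0% and 66.4%. These shares rest on the assignment of short reads to transcripts by StringTie. Pkm-205, a transcript with a retained intron, held 6.41%, 4.08% and 4.15% of Pkm transcript FPKM in TCR alone against 9.84%, 5.18% and 5.06% in TCR+DMGV, and 9.84% was the share of TCR+DMGV replicate 1.

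**Figure D3:**
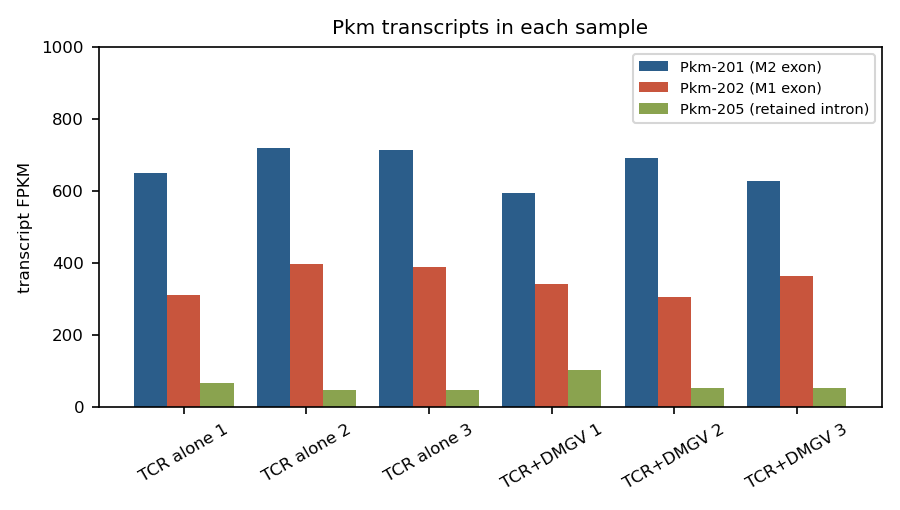
FPKM of the 3 most abundant Pkm transcripts in each of the 6 samples (blue Pkm-201 with the M2 exon, red Pkm-202 with the M1 exon, green Pkm-205 with a retained intron). In every sample the M2 transcript is highest, from 594 to 719 FPKM, above the M1 transcript at 306 to 397 FPKM.

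Lactate dehydrogenase, which reduces pyruvate to lactate and restores NAD+, was nearly all Ldha. Ldha (ENSMUSG00000063229, chromosome 7, 46841475 to 46855627) gave 2098, 2518 and 2456 CPM in TCR alone against 2333, 2227 and 2490 CPM in TCR+DMGV. The lowest and the highest sample were both in TCR alone, and the log2 fold change was -0.0047 (standard error 0.09). With the copies of Gapdh left out, Ldha was the gene of the pathway with the highest level per length, at 637 ± 58.9 and 628 ± 33.9 gene FPKM, rank 54 of all genes, followed by Pkm at 512 ± 32.5 and 479 ± 6.57. Ldha held 98.2% ± 0.086 and 98.1% ± 0.21 of the step (exact permutation test, p = 0.7). Ldhb, whose product favours the reverse reaction, had 11.7 ± 1.62 and 11.8 ± 0.89 FPKM, and Ldhc, the testis form, had 0 counts.

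Lactate leaves the cell mainly through the products of Slc16a1 (MCT1) and Slc16a3 (MCT4), which reach the membrane together with basigin, the product of Bsg. Slc16a1 led with 50.1 ± 1.45 gene FPKM in TCR alone against 45.9 ± 1.07 in TCR+DMGV, 82.9% ± 0.65 and 83.7% ± 1.5 of the step (exact permutation test, p = 0.4). On summed transcript FPKM it held 65.9% ± 4.4 and 69.5% ± 2.5, and Slc16a3 held 34% and 30.5%. It gave 252, 256 and 235 CPM against 220, 238 and 232 CPM, overlapping at TCR alone replicate 3. On gene FPKM it did not overlap, with 51.2, 50.5 and 48.4 in TCR alone against 45.1, 47.1 and 45.6 in TCR+DMGV. Slc16a3 gave 64.5, 64.4 and 55.2 CPM in TCR alone against 46.7, 62.7 and 52.1 CPM in TCR+DMGV (log2 fold change -0.19, standard error 0.13). With 1 sample left out, the log2 fold change of Slc16a3 ran from -0.313 to -0.0994. The lowest sample of Slc16a3 in each group was one of the 2 that stood apart on the first component. Bsg had 271 ± 35.5 and 263 ± 30.1 CPM, and Emb, the gene of the other chaperone of these transporters, had 5882, 6770 and 3323 counts in TCR alone against 3227, 6085 and 5495 in TCR+DMGV, again lowest in those 2 samples.

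Pyruvate dehydrogenase kinases hold pyruvate back from the mitochondria by inhibiting pyruvate dehydrogenase. Pdk3 and Pdk1 made up nearly all of this step, Pdk3 with 54.6% ± 3.5 in TCR alone against 54.5% ± 4.8 in TCR+DMGV (exact permutation test, p = 1.0) and Pdk1 with 41.9% ± 2.5 and 43.2% ± 4.7 of gene FPKM. On summed transcript FPKM the order of their means was the other way, with Pdk1 at 49.8% and 52.5% and Pdk3 at 46.9% and 45.0%. By sample, Pdk3 was still above Pdk1 there in TCR alone replicate 1 (51.5% against 45.7%) and, barely, in TCR+DMGV replicate 2 (48.7% against 48.6%). Pdk2, the minor form, gave 4.29, 4.36 and 6.09 CPM in TCR alone against 3.30, 3.58 and 2.68 CPM in TCR+DMGV. All samples with DMGV lay below the others, with a log2 fold change of -0.63 (standard error 0.22, unadjusted p = 0.022), which did not pass after adjustment over all genes (edgeR adjusted p = 0.999). It was the lowest unadjusted p among the 32 genes, and TCR alone replicate 3 stood highest. Pdk1 gave 150, 166 and 139 CPM against 146, 137 and 149 CPM, Pdk3 gave 72.8, 71.5 and 52.5 against 49.5, 68.5 and 63.0 CPM, and Pdk4 had 5 counts in 1 sample.

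**Figure D4:**
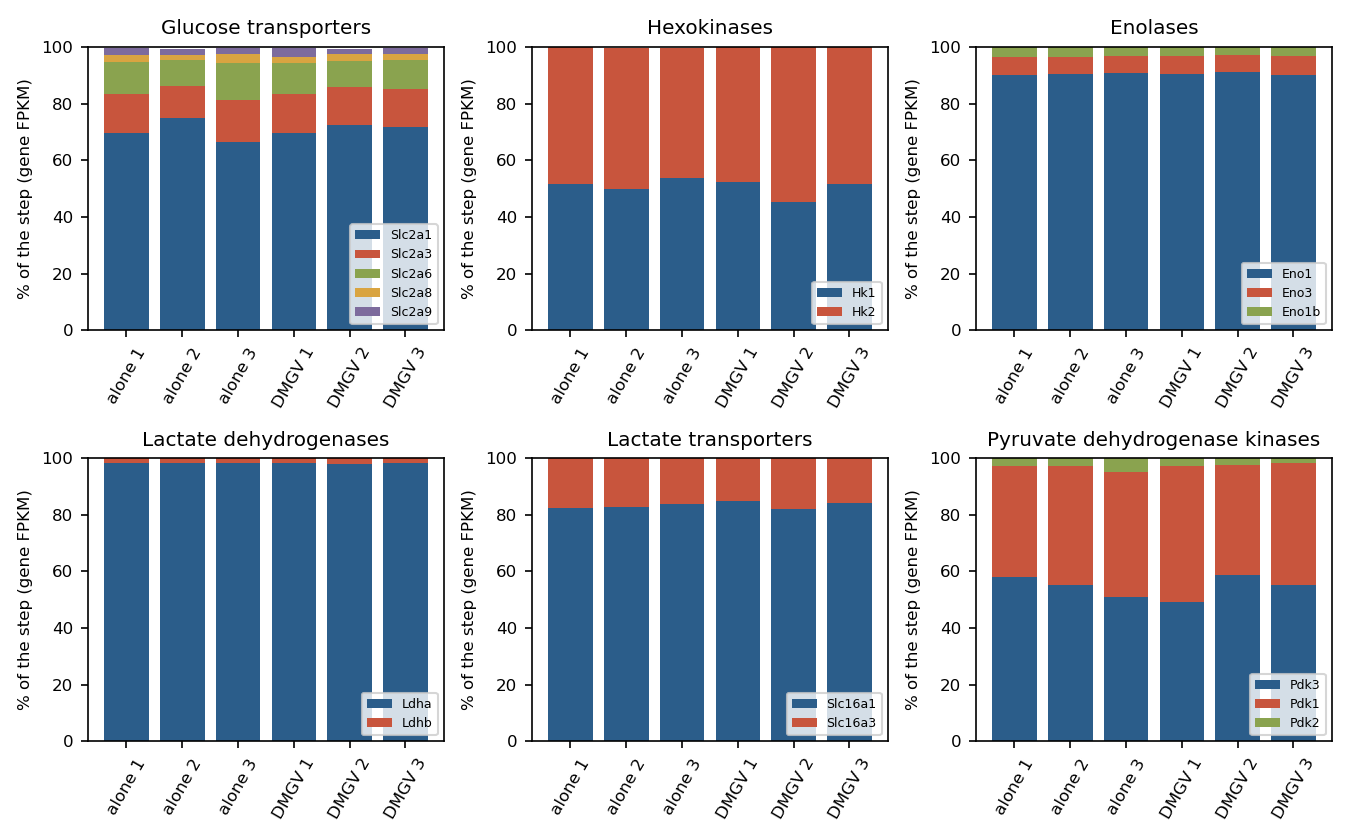
Share of each step's summed gene FPKM held by its forms in each of the 6 samples, for glucose transporters, hexokinases, enolases, lactate dehydrogenases, lactate transporters and pyruvate dehydrogenase kinases; forms under 0.5% are not drawn. Within each step the same form leads in all samples except for hexokinase, where Hk2 is above Hk1 in TCR+DMGV replicate 2 (54.7% against 45.2%).

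The remaining genes feed side branches of the pathway. Pgm2, a phosphoglucomutase family gene, had 41.3 ± 1.71 CPM in TCR alone against 42.8 ± 2.45 CPM in TCR+DMGV, and Pgm1, which is not among the 33 genes, was higher per length and held 71.5% ± 2.5 and 69.6% ± 0.93 of the FPKM of both (exact permutation test, p = 0.3). Galm, galactose mutarotase, gave 20.8, 21.6 and 20.5 CPM against 19.9, 16.4 and 21.1 CPM. The glycerol-3-phosphate dehydrogenases were shared evenly between Gpd1l (50.2% ± 4.0 and 50.6% ± 1.7 of FPKM) and the mitochondrial Gpd2 (49.5% and 49.2%), with log2 fold changes of -0.06 and -0.08 and overlapping groups. Over the 8 steps in which the leading form held 98% or less in at least 1 sample, the share of the leading form had exact p from 0.3 to 1.0 and an adjusted p of 1.0 in each, where 3 samples against 3 cannot give less than 0.1. In the 4 samples without the 2 that stood apart, the leading forms' shares differed between the groups by -2.52 (Hk1) to 0.616 percentage points (Slc16a1), with no test.

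At the level of transcripts, no form of these genes passed a test over all 6 samples, although the counts of several differed widely between samples of the same group. Of 121 transcripts of the 33 genes tested, 0 passed an adjusted p of 0.05, as did 0% of the 38401 transcripts tested, and 1 had an unadjusted p under 0.05 (against 3.22% of all). Transcript usage, tested with edgeR's diffSpliceDGE, was called for 1.58% of 7789 genes and for 0 of the 22 genes of the pathway that could be tested, the lowest unadjusted p being 0.079 for Tpi1. Other settings gave lower values that did not pass, among them Hk1 with limma voom (adjusted p = 0.114) and without TCR+DMGV replicate 3 (edgeR adjusted p = 0.0681), Galm without TCR alone replicate 2 (edgeR adjusted p = 0.0679), Slc2a6 without TCR alone replicate 1 (edgeR adjusted p = 0.0808) and Pdk1 without TCR alone replicate 3 (edgeR adjusted p = 0.0508). In the 4 samples without the 2 that stood apart, 0 of 124 transcripts were called, whereas usage was called for 4.39% of 7975 genes and for 2 of the 23 genes of the pathway tested, Pdk1 (edgeR adjusted p = 0.000188) and Aldoc (edgeR adjusted p = 0.012).

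The transcript with an unadjusted p under 0.05 was Slc16a3-207, with a log2 fold change of -5.17 (standard error 1.73, edgeR adjusted p = 1.0). It had 5, 606 and 528 counts in TCR alone against 17, 14 and 2 in TCR+DMGV. The groups overlapped because TCR alone replicate 1 had as few as the samples with DMGV. In TCR alone replicate 3 the gene's main form was also missing. Slc16a3-201, which held 82.1% to 86.0% of the gene in TCR alone replicate 1 and in the 3 samples with DMGV, had 0 counts there while the gene as a whole had 55.2 CPM.

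Ldha showed the same on a larger scale. Ldha-201 and Ldha-210, whose annotated lengths are 1766 and 1815 bases, had 17167 and 46605 counts in TCR alone replicate 1, 81509 and 5303 in replicate 2, and 38722 and 44391 in replicate 3. In TCR+DMGV they had 44005 and 41351, 18448 and 58756, and 81881 and 688. The split did not follow the groups, and Ldha-202 stayed at 16.4% to 19.7% of the gene throughout. Eno1-201 held 8.88% of its gene in TCR alone replicate 2 and lay at 44.3% to 48.4% in the other 5 samples. Pdk1-208 held 33.5%, 30.2% and 39.1% in TCR alone replicate 3 and in TCR+DMGV replicates 2 and 3 and at most 0.239% in the rest. The call of Pdk1 in the 4 samples therefore had both TCR alone samples low and both TCR+DMGV samples high, while the 2 samples left out had it the other way round. That of Aldoc involved Aldoc-206, which had at most 13 counts in any sample.

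The forms of Hk1 differed within the TCR+DMGV group. Hk1-205, a coding transcript of 2916 bases, had 2473, 2627 and 2506 counts in TCR alone against 116, 0 and 2237 in TCR+DMGV. It was far lower in 2 of the 3 samples with DMGV, where Hk1-202 held 92.6% and 93.6% of the gene, against 59.9% to 64.6% in the other 4. In counts and CPM all 3 samples with DMGV lay below TCR alone, whereas its share of the gene overlapped, at 33.6% in TCR+DMGV replicate 3 against 32.4% in TCR alone replicate 3. The log2 fold change of Hk1-205 was -1.69 with a standard error of 1.98 (unadjusted p = 0.43). Gpd2-207 had groups without overlap, at 9.49%, 9.33% and 10.2% of Gpd2 in TCR alone against 12.6%, 14.6% and 13.9% in TCR+DMGV (exact permutation test, p = 0.1, the lowest possible). Among 45 transcript shares compared in 19 genes, 5 reached this exact p of 0.1 (Gpd2-207, Gpd2-201, Ldhb-201, Ldhb-204 and Slc16a3-201), where 9.13% of 18668 such shares in all genes tested had groups without overlap, and the lowest adjusted p was 0.82.

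**Figure D5:**
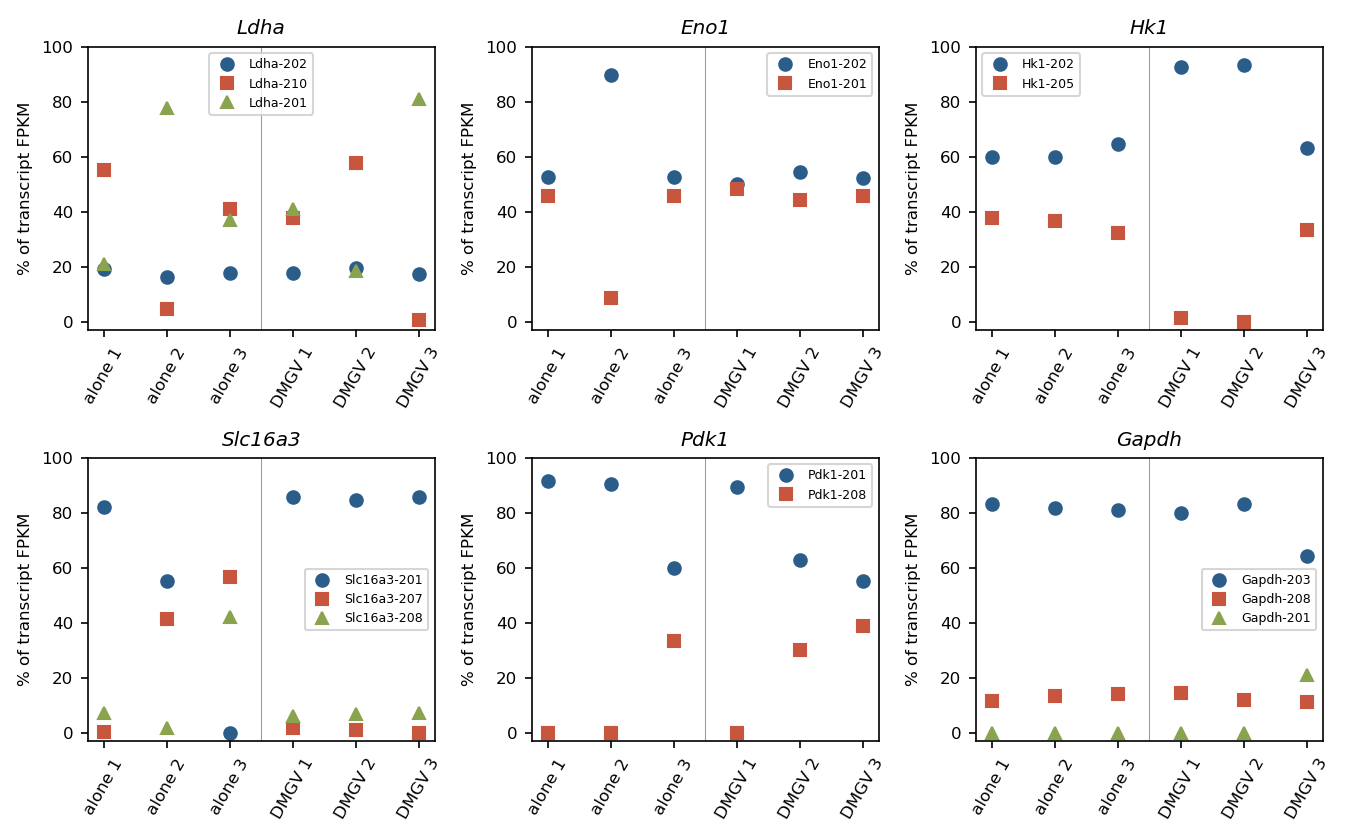
Share of a gene's transcript FPKM held by its main transcripts in each sample, TCR alone left and TCR+DMGV right of the line, for Ldha, Eno1, Hk1, Slc16a3, Pdk1 and Gapdh. For Ldha, Ldha-201 runs from 18.6% to 81.2% without following the groups, and Hk1-205 is at 1.68% and 0% in 2 of the 3 samples with DMGV.

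Genes around the pathway were read from the same fit, from lists drawn up by function, and 0 genes of any of these lists passed the threshold. Among 8 tested genes of phosphofructokinase and its control, 1 had an unadjusted p under 0.05 and the median log2 fold change was -0.10. That gene was Pfkfb3, which makes the activator fructose-2,6-bisphosphate, at 46.8, 51.0 and 49.5 CPM in TCR alone against 83.5, 92.9 and 84.5 CPM in TCR+DMGV (log2 fold change 0.83, standard error 0.09, edgeR adjusted p = 0.080; DESeq2 adjusted p = 9.67e-10). All its samples with DMGV were higher, whereas Pfkp, a phosphofructokinase subunit, gave 480, 472 and 461 against 444, 430 and 428 CPM (log2 fold change -0.12, edgeR adjusted p = 0.999).

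The pentose phosphate pathway (11 tested, 4 higher and 7 lower, median -0.04), glycogen and UDP-glucose (9 tested, 3 and 6, median -0.05), the hexosamine pathway (7 tested, 5 and 2, median 0.0099) and entry of pyruvate into mitochondria (10 tested, 6 and 4, median 0.03) had 0 genes at an unadjusted p under 0.05. Among the genes of smallest p in these lists were Shpk and Pgls, Gyg, Nagk and Ogt, and Pdhx and Pdpr, with unadjusted p between 0.135 and 0.47. Among 7 genes of the NADH shuttles, Slc25a12, a mitochondrial aspartate-glutamate carrier, gave 86.1, 90.3 and 82.1 CPM against 100, 103 and 96.7 CPM (log2 fold change 0.22, unadjusted p = 0.025, edgeR adjusted p = 0.999), and its relative Slc25a13 had a log2 fold change of -0.17. Both shuttle carriers had groups without overlap, in opposite directions.

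Regulators of glycolysis (23 tested) had 13 higher and 10 lower estimates with a median of 0.03 and 0 at an unadjusted p under 0.05. The 2 of smallest p were Egln1, the oxygen-sensing hydroxylase PHD2, at 117 ± 10.2 and 102 ± 5.06 CPM, and Mlx, a partner of glucose-sensing transcription factors, at 53.4 ± 1.19 and 64.7 ± 10.8 CPM. Targets of hypoxia-inducible factor outside glycolysis (12 tested) had 2 higher and 10 lower estimates with a median of -0.14. Bnip3, a mitophagy gene, gave 35.4, 29.5 and 21.5 CPM in TCR alone against 17.7, 21 and 22.6 CPM in TCR+DMGV (log2 fold change -0.49, unadjusted p = 0.036, edgeR adjusted p = 0.999), where TCR alone replicate 3 lay among the samples with DMGV, and Ankrd37 had 3.76 ± 1.16 and 2.56 ± 0.30 CPM.

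The promoters of the pathway genes were searched for 2 short motifs, in RefSeq's windows of 250 bases before to 50 bases after each start (GRCm38.p6), on both strands. ACGTG, the core that hypoxia-inducible factor can bind, was found for 18 of the 30 genes matched, among them Slc2a1, Hk2, Pgk1, Ldha and Slc16a3, against 21.8% of 27025 genes. CACGTG, an E-box that holds ACGTG within it, was found for 4 of the 30 (Ldha, Slc16a1, Pdk2 and Gpd1l), against 8.09% of all genes. The 27025 genes were not limited to those expressed in these cells, of which 14786 passed the filter on low counts. The share among expressed genes is not given here, so the comparison does not show that the motif is particular to this pathway. A match describes the letters only.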

How the data were processed

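RNA was measured in 6 samples, 3 per group. Per the study's methods and the labels, mRNA-seq libraries were read on an Illumina instrument, filtered with SOAPnuke, mapped with HISAT2 2.0.4 and quantified with StringTie. The labels name the build mm9, whereas 99.7% of the gene identifiers (without version) are those of GENCODE M21 (GRCm38), from which symbols and coordinates come. The authors deposited whole-number counts per gene and per transcript, not normalized, and FPKM values, scaled to length and depth. How StringTie's coverage became counts, and whether strand was used, is not given in the sources used here. Of gene counts from 1 to 40, 32.0% are multiples of 4 where even spacing gives 25%, and what 1 count stands for is not known. The deposited gene FPKM values and the summed transcript FPKM differ (the sum is 1.38 times the gene value in the median of 10949 genes), and the cause was not tested. Shares on both are given for glucose transporters, hexokinases, lactate transporters, pyruvate dehydrogenase kinases and glycerol-3-phosphate dehydrogenases.

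From the files, gene counts were fitted with edgeR 4.0.16 (R 4.3.3, TMM, default filter, 14786 genes kept) by its quasi-likelihood test, two-sided, with p adjusted over all genes and a threshold of 0.05. Transcript counts were treated alike, and shares of FPKM were compared by exact permutation tests. Alternatives were DESeq2 1.42.0, limma 3.58.1 on log2(FPKM + 1) or log2(FPKM + 0.1), other scalings and filters, copies added, a replicate block and each sample left out. Near-identical copies were found with BLAST 2.17.0. The fits were tested on simulated data with log2 changes of 1 or of 3. For genes, edgeR found 50.5% of the changes of 1 and 95.9% of those of 3. DESeq2 found 59.8% and 94%, and limma found 48% and 93%. With edgeR, the transcript test found 0% and 27.3%, and the usage test found 1.09% and 37%. In the same simulations the gene tests also called unchanged genes, 15 with edgeR, 55 with DESeq2 and 11 with limma. The usage test called 39 unchanged genes, where 100 genes were changed by each amount. A call by DESeq2 alone or by the usage test is therefore uncertain. The changed genes were drawn from all genes that passed the filter, whatever their level. Over all genes, a low count of calls therefore says little about gene changes of 1 or smaller on the log2 scale. It also says little about changes of transcripts. For single genes of the pathway the 95% intervals say more, with both bounds within 0.5 of 0 for 26 of the 32. Tables were made with Python 3.11.15.

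The genes and lists were chosen with earlier results of these data known. The text names every one of the 33 genes, other forms of a step with at least 1 FPKM, of each list the genes past the threshold or else the 2 of smallest p, of each marker list the most abundant gene, and its transcripts from among those holding at least 10% of their gene. Other genes named (those listed at 0, single markers, Pkm-205, Gapdh-201) were chosen after their values were seen, as were the settings without Gapdh-201, with 4 samples, and on summed transcript FPKM. Symbols of 3 listed genes (Oga, Ero1a and Ahsp) were not found in the annotation. Aldoa has a further Ensembl entry with 4 counts in 1 sample, not analysed here. Some genes that these rules would name are not reported here.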

Additional observations from a re-analysis of the deposited data

How the results depend on the processing

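No gene of the pathway passed the threshold in any setting run (lowest adjusted p 0.649, edgeR or the setting's own tool), 563 of 607 fitted values kept their sign, and 16 of the genes kept it in every setting. The number of all genes past the threshold, 2 at first, was 14 with DESeq2, 1 with library size alone, with all genes with a count or with a mean count of at least 10, 0 with limma on log2(FPKM + 1), with or without the filter, and on log2(FPKM + 0.1), 12 in the 4 samples and 0 to 5 with 1 sample left out, the 5 being without TCR+DMGV replicate 1. With the replicate block it was 0, the number of genes with changed transcript usage went from 123 to 48. Deviations of same-numbered samples correlated at -0.154, 0.121 and -0.148, and the numbers were not taken as pairs. With 3 samples per group these values cannot show whether same-numbered samples shared an animal or a batch. Transcripts past the threshold were 4 with limma on log2(FPKM + 1) and 0 to 1 with 1 sample left out, the 1 being without TCR alone replicate 3. Usage calls were 42 with voom, 196 to 225 with 1 sample left out and 350 in the 4 samples, 2 of them in the pathway (Pdk1 and Aldoc). The median log2 fold change of the pathway ran from -0.119 without TCR alone replicate 1 to -0.0421 without TCR+DMGV replicate 1. Without TCR alone replicate 1, 5 genes of the 32 had an unadjusted p under 0.05 (Gpi1, Pkm, Pdk2, Pgam1 and Tpi1), where 438 of all 15169 genes tested did. Pdk2 ranged from -0.731 to -0.436 with 1 sample left out. Likewise, Eno1 ranged from -0.147 to -0.00866, Pkm from -0.151 to -0.0347, Gpd2 from -0.15 to -0.0101 and Slc2a3 from -0.0971 to -0.00121. Pfkfb3 passed with DESeq2 at a log2 fold change of 0.819. The Slc16a1 share differed by 3.53 points on summed transcript FPKM. The causes were not tested.

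Some estimates took the other sign, most of them within 0.25 of 0. The exception was Pgls at 0.30, which was -0.105 without TCR+DMGV replicate 2, the sample with 70.7 CPM where the others had 34.6 to 42.4. In the 4 samples the log2 fold change was 0.0311 for Aldoa, 0.0068 for Aldoc, 0.00514 for Bsg, -0.093 for Eno2, 0.0201 for Hk2, 0.0337 for Ldha, 0.0213 for Slc2a3, 0.238 for Slc2a8 and -0.0646 for Ogt. For Eno3 it was -0.00725 with library size alone, -0.00919 with limma on log2(FPKM + 1) with or without the filter and -0.00968 on log2(FPKM + 0.1). For Minpp1 it was -0.000773 with DESeq2, -0.00204 with RLE size factors, -0.0104 with library size alone, -0.0152 with limma on log2(FPKM + 1) with or without the filter and -0.0157 on log2(FPKM + 0.1). With 1 sample left out, the range was -0.117 to 0.0182 for Aldoa, -0.38 to 0.00485 for Aldoc, -0.156 to 0.0458 for Bsg, -0.0408 to 0.0465 for Eno3, -0.0483 to 0.243 for Gapdh, -0.125 to 0.00476 for Gpd1l, -0.0755 to 0.0334 for Hk2, -0.099 to 0.0414 for Ldha, -0.0995 to 0.108 for Ldhb, -0.0688 to 0.0757 for Minpp1, -0.252 to 0.00208 for Pdk3, -0.121 to 0.00493 for Pgk1, -0.147 to 0.0761 for Slc2a1, -0.181 to 0.144 for Slc2a8, -0.0224 to 0.199 for Gyg, -0.0395 to 0.228 for Ogt and -0.105 to 0.47 for Pgls.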
